A study of Mus musculus with 5 samples.

Results

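The 10 genes described here encode receptors of natural killer (NK) cells and were followed in the lymphocytes of mouse dermis: Klra1, Klra7, Klre1, Klrd1, Klrk1, Klrb1c, Ncr1, Cd160, Klrg1 and Cd96. They were 10 of the 27998 genes in the deposited tables, and all 10 were found by symbol. The study had sequenced RNA from single live CD45+ cells, CD45 being a surface protein of all white blood cells, taken by cell sorting out of digested C57BL/6 mouse dermis and run through the droplet system of 10x Genomics. Its 5 libraries, 1 per label, were taken at postnatal day 45 (P45), P50, P63 and P80 during telogen, when hair follicles rest, and as P50_Depil5D, where the name points to depilation, the removal of hair, and to 5 days. The labels leave unsaid if P50 was the day of depilation or of collection, and how many animals went into a library. All animals shared the strain and carried no other labelled genotype or treatment.

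NK receptors are surface proteins through which NK cells and some T cells read the state of a neighbouring cell. Activating receptors bind molecules that appear on stressed or infected cells, and inhibitory receptors bind class I histocompatibility molecules or adhesion molecules that healthy cells carry. In skin, such receptors are found on NK cells and also on resident T cells, which use them to sense stressed epithelium.

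Lymphocytes were sorted into 4 classes with gates that used none of the 10 genes. Cd3-positive cells had at least 2 UMIs (unique molecular identifiers, each counting 1 captured RNA molecule) of Cd3d, Cd3e and Cd3g. Those with at least 0.3% of their UMIs from the cathepsin inhibitor gene Ctla2a were called Ctla2a-high (1001 cells). Of the rest, those with a UMI of Cd8b1 were called Cd8b1-positive (62 cells), and the remainder other Cd3-positive (613 cells). NK-gated cells had 0 UMIs of the 3 Cd3 genes and at least 3 of 11 NK gate genes such as Nkg7, Gzmc and Xcl1 (77 cells). Together these were 1753 of 6162 cells kept, with 317, 587, 132, 66 and 651 per library in the order P45, P50, P63, P80, P50_Depil5D, called library order from here on. NK-gated cells numbered 31, 20, 7, 3 and 16 in library order. Median UMIs per cell were 1803 in NK-gated, 1234 in Ctla2a-high, 1774.5 in Cd8b1-positive and 1712 in other Cd3-positive cells.

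The NK-gated cells matched their label in part. Tyrobp, the adaptor of many activating NK receptors, had a UMI in 89.6% of them, Nkg7 in 87.0%, and the granzyme gene Gzmc in 67.5%. Eomes, a transcription factor of mature NK cells, was found in only 5.19%, Gzma in 11.7% and the perforin gene Prf1 in 2.60%, and Ctla2a in 84.4%. They are therefore called NK-gated throughout, and a T cell whose Cd3 RNA was missed can pass the gate. Cd8a, the partner of Cd8b1, had a UMI in 62.9% of Cd8b1-positive cells, and Nkg7 in 97.0% of Ctla2a-high cells.

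Whole libraries differed in ways that touch the values below. Depth ran from 1032621 to 7491878 UMIs per library. A barcode was shared with another library by 834 of the 6162 cells kept, among them 321 of 530 keratinocyte-gated cells but only 34 of the 1753 lymphocytes. In P45, 240 of 526 cells with 2 Cd3 UMIs were left out, 200 of them for a share of myeloid UMIs over 1%, against 20 to 62 cells left out in each other library. Without the cells of shared barcodes, no count of receptors called between classes changed. Age and depilation have 1 library each, so differences between libraries were not tested, and every interval given for them covers counting error only.

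Of the 10 genes, 7 lie on chromosome 6 of the mm10 build (GENCODE vM21 annotation): Klrg1 at 122270596 to 122282882, Klrb1c at 128778485 to 128789215, Klre1 at 129577905 to 129585827, Klrd1 at 129591782 to 129598775, Klrk1 at 129610323 to 129623864, Klra7 at 130218605 to 130233322 and Klra1 at 130363917 to 130386874. Ncr1 lies on chromosome 7 at 4337724 to 4345164, Cd160 on chromosome 3 at 96798763 to 96829351, and Cd96 on chromosome 16 at 46035657 to 46120251. Reads of some of these genes are uncertain. Klra1 and Klra7 belong to a family of near copies: of the 50-base words in the last 500 bases of their transcripts, 5.76% of those of Klra1 also occurred in Klra4, and 27.5% of those of Klra7 in Klra13-ps, so their counts are uncertain. Cd160 overlaps Pdzk1 on the opposite strand and Klrb1c overlaps Gm44511, and how the counting treated strand is not given in the sources used here.

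Promoter sequences were available from RefSeq for 8 of the 10 genes (GRCm38.p6); Klrd1 and Klrg1 had no entry. A RUNX motif was searched in them because Runx3, a transcription factor of cytotoxic lymphocytes, was higher in NK-gated and Ctla2a-high than in other Cd3-positive cells (below). Klrk1 and Klrd1 were also higher in both, whereas Cd96 was higher in Ctla2a-high cells only. Whether Runx3 bears on any of these genes was not tested. Over Cd8b1-positive cells Runx3 was not called. The letters TGTGGT, the core of the motif bound by RUNX factors, were searched on both strands from 250 bases before to 50 bases after each start. They occurred in 9 of 12 promoters of these genes and in 16.8% of all 32851 promoters listed. The 9 belonged to 7 of the 8 genes, and only Klra7 had none. The 12 are not independent. Both stretches of Ncr1 overlap and hold the same matches, and those of Klre1 overlap with a match in only 1. Genes with more than 1 promoter had more chances of a match, so counts of genes cannot be set against shares of promoters. The core of the T-box motif, GGTGTG, occurred in 3 of the 12 promoters and in 19.0% of all promoters. The 3 belonged to 2 of the 8 genes, Klra1 and Cd160. A match describes the letters and is not a site of binding. The 250 bases before a start of 5 of the genes, for Cd160 the inner of 2 listed starts, are printed 5′ to 3′ on the strand of the gene, with TGTGGT or its reverse complement in capitals. They are Klrk1 at chr6:129623865-129624114 (minus strand), Klre1 at chr6:129577963-129578212 (plus strand), Ncr1 at chr7:4337465-4337714 (plus strand), Cd160 at chr3:96814522-96814771 (minus strand) and Cd96 at chr16:46120249-46120498 (minus strand).
Klrk1: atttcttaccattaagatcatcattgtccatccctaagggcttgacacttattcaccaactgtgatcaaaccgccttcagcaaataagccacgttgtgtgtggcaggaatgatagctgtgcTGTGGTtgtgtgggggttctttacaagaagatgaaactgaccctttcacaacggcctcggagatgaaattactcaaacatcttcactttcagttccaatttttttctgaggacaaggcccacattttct
Klre1: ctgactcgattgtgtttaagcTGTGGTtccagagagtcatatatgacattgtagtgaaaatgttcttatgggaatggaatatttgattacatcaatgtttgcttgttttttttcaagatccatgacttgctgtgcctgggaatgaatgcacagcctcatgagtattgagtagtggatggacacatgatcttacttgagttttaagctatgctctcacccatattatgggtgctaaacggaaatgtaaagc
Ncr1: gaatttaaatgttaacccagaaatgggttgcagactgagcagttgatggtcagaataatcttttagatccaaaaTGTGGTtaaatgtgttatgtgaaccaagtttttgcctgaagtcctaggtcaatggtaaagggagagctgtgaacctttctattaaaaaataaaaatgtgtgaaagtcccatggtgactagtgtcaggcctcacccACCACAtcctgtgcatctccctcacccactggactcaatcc
Cd160: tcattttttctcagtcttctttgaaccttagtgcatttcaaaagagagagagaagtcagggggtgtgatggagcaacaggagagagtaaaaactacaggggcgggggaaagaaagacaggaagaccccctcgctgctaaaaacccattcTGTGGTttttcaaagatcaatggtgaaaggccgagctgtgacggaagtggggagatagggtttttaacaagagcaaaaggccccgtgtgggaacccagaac
Cd96: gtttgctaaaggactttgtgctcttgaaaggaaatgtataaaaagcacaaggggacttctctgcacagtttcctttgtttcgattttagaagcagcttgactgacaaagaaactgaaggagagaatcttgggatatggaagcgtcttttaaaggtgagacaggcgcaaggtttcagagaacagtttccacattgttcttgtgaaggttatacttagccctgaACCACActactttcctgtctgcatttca

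Which class carried which receptor was the first comparison. UMIs were summed per class and library and are given as CPM, the UMIs of a gene scaled to a total of 1000000 for that sum. Classes were compared with edgeR's quasi-likelihood test with library as a block, over the sums of at least 10 cells: 3 libraries for NK-gated cells (P45, P50 and P50_Depil5D), 3 for Cd8b1-positive cells (P45, P63 and P50_Depil5D), and all 5 for the other classes. A gene was called at a Benjamini-Hochberg adjusted p under 0.05 over the 1312 genes that passed a filter on low counts. Only 4 of the 10 receptors passed it: Klrd1, Klrk1, Cd160 and Cd96. Changes of the remaining 6 come from an alternative with no filter, fitted to 14875 genes, and each is named as such. The 5 libraries stand as the units of the test although they differ in age and depilation.

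NK-gated and Ctla2a-high cells both carried Klrk1 and Klrd1 at levels several times those of the remaining T cells, whereas Cd96 was high in Ctla2a-high cells and Ncr1 in NK-gated cells. Against other Cd3-positive cells, 3 of the 4 tested receptors were higher in Ctla2a-high cells (background: 36.1% of the 1312 genes called in either direction). In NK-gated cells 3 were higher, where 5.49% of genes were called. Against Cd8b1-positive cells, 3 were higher in Ctla2a-high cells (26.4% of genes called) and 2 in NK-gated cells (3.05%). Between NK-gated and Ctla2a-high cells 1 of the 4 was called, lower in NK-gated cells (19.4%). The 4 passed the filter through the classes in which they were abundant, so these counts describe them and are no measure of all 10. Their median log2 change was 1.72 in Ctla2a-high over other Cd3-positive cells, beside 0.03 over all genes tested, and 1.61 in NK-gated over other Cd3-positive cells, beside -0.08. Cd8b1-positive and other Cd3-positive cells differed in none of the 4 by edgeR (1.91% of genes called), also at an unadjusted p under 0.05 and by DESeq2.

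**Figure D1:**
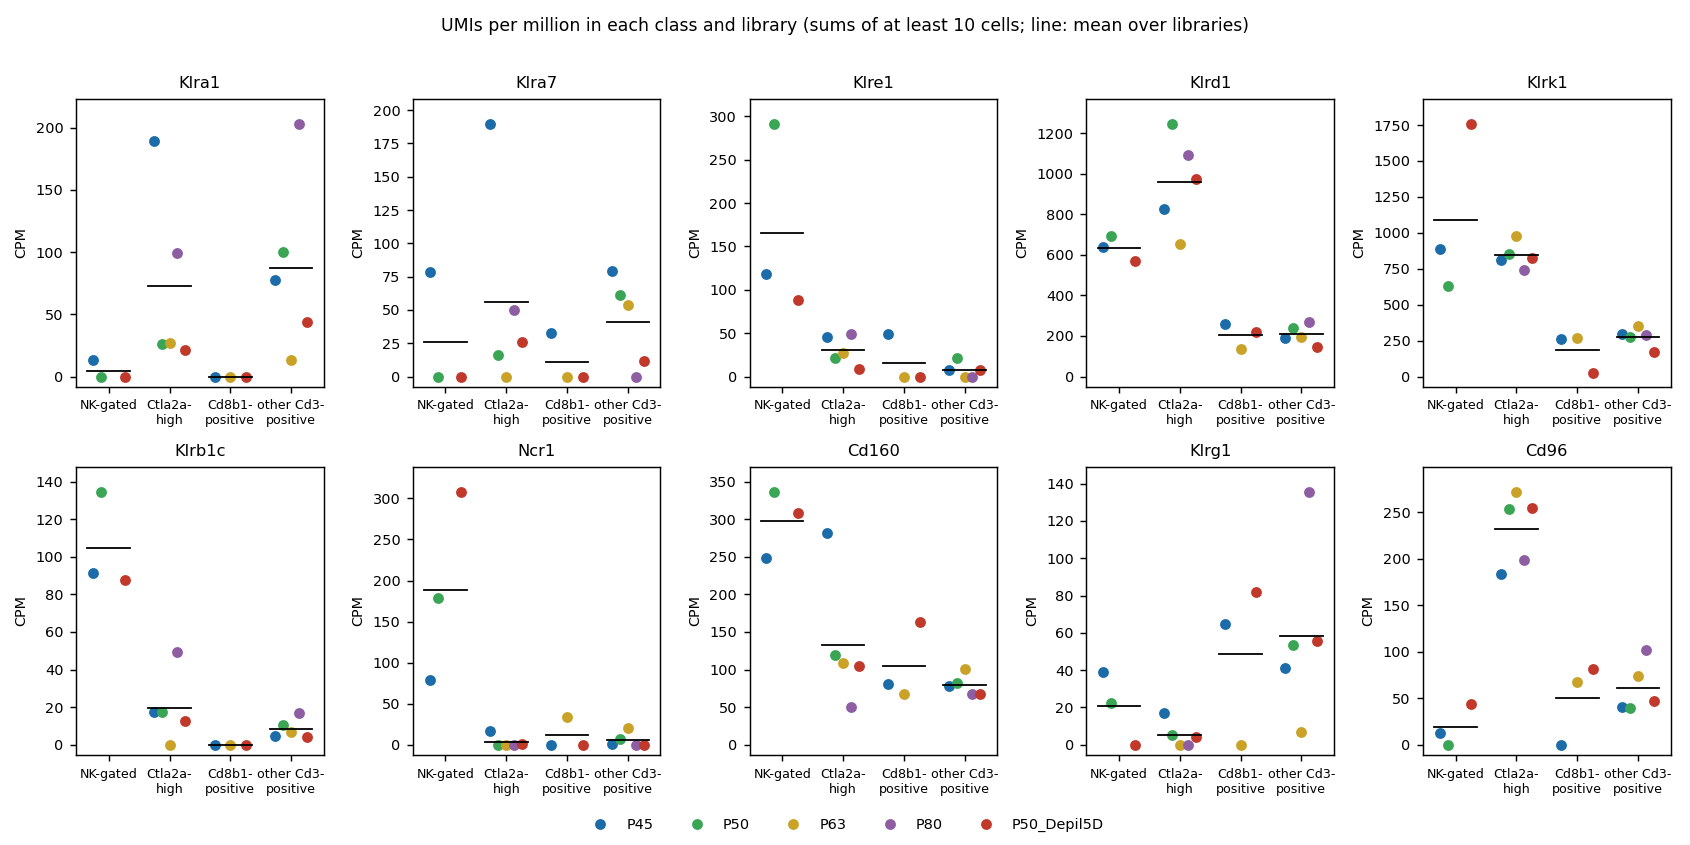
Level of each receptor gene in CPM (vertical axis, a separate scale for each gene) in the 4 lymphocyte classes (horizontal axis). Each point is the sum of 1 library with at least 10 cells of the class, coloured by library, and the line is the mean over libraries. Ncr1, Klre1 and Klrb1c are highest in NK-gated cells, Cd96 in all 5 libraries of Ctla2a-high cells, and the P45 library stands above the other 4 for Klra1, Klra7 and Cd160 in Ctla2a-high cells.

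Klrk1 encodes NKG2D, an activating receptor for stress-induced ligands of the RAE-1, H60 and MULT1 families. In NK-gated cells its level was 889 CPM in P45, 627 in P50 and 1758 in P50_Depil5D, or 1092 ± 592 (SD, n = 3). In Ctla2a-high cells it was 810, 855, 979, 744 and 825 CPM in library order. The Ctla2a-high libraries thus lay close together and inside the range of the NK-gated ones. In other Cd3-positive cells Klrk1 was 297, 276, 349, 288 and 171 CPM in library order, and in Cd8b1-positive cells it was 259 in P45, 271 in P63 and 27.3 in P50_Depil5D. Neither overlapped with the first pair of classes. By edgeR, Klrk1 was higher in NK-gated than in other Cd3-positive cells (log2 change 1.87 ± 0.34 SE, adjusted p = 0.0027) and higher in Ctla2a-high than in other Cd3-positive cells (1.46 ± 0.27, adjusted p = 0.00025). It was also higher than in Cd8b1-positive cells in both, by 2.43 ± 0.48 in NK-gated cells (adjusted p = 0.0092) and 2.01 ± 0.44 in Ctla2a-high cells (adjusted p = 0.0019). Both of these calls were lost when Cd3-positive cells needed at least 4 Cd3 UMIs (edgeR adjusted p = 0.123 and 0.0635). NK-gated and Ctla2a-high cells did not pass the test of their difference (0.41 ± 0.33, adjusted p = 0.43), and without P50_Depil5D that change was -0.0013.

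Klrd1 encodes CD94, the chain that joins an NKG2 chain into a receptor for Qa-1, a non-classical class I molecule. Ctla2a-high cells held 828, 1246, 653, 1091 and 975 CPM in library order, and NK-gated cells 641, 695 and 571 CPM in P45, P50 and P50_Depil5D. The 2 classes overlapped only through the P63 library of Ctla2a-high cells. Levels were 136 to 259 CPM over the 3 Cd8b1-positive libraries and 147 to 271 CPM over the 5 libraries of other Cd3-positive cells. Both ranges lay wholly below the first 2 classes. Klrd1 was higher in Ctla2a-high than in other Cd3-positive cells by 2.05 ± 0.17 (edgeR, adjusted p = 2.1e-07) and than in Cd8b1-positive cells by 1.79 ± 0.27 (adjusted p = 0.00014). The first change was called in all 24 alternatives, but its size followed the Ctla2a gate, from 1.14 with a gate of 1% to 3.09 with 0.1%. In NK-gated cells Klrd1 was higher than in other Cd3-positive cells by 1.53 ± 0.23 (edgeR, adjusted p = 0.00047). That change depended on the Ctla2a gate: it was not called with a gate of 1% (0.52, adjusted p = 0.261), and over 24 alternatives it ran from 0.52 to 2.72. The change over Cd8b1-positive cells, 1.27 ± 0.31 (adjusted p = 0.0299), was called in only 14 of 24 alternatives, which gave 0.90 to 1.72. It lost its call without P45 (adjusted p = 0.0898), without P63 (0.113) or without P50_Depil5D (0.233), with a Ctla2a gate of 0.1% or 1%, at least 2 or 4 NK gate genes, at least 4 Cd3 UMIs, a lineage limit of 2% and no filter on low counts. NK-gated cells were lower than Ctla2a-high cells by a log2 change of -0.52 ± 0.22, which did not pass (adjusted p = 0.107) but was called with at least 2 NK gate genes (-0.87, adjusted p = 0.0045). In the fit with no filter on low counts, the call over other Cd3-positive cells was lost (0.94 ± 0.33, adjusted p = 0.143) and the difference from Ctla2a-high cells was called (-1.05 ± 0.32, adjusted p = 0.0431). That fit moved all genes by a median of -0.54 and -0.53 in these contrasts, and relative to these shifts Klrd1 changed by 1.48 and -0.53, near the values with the filter.

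**Figure D2:**
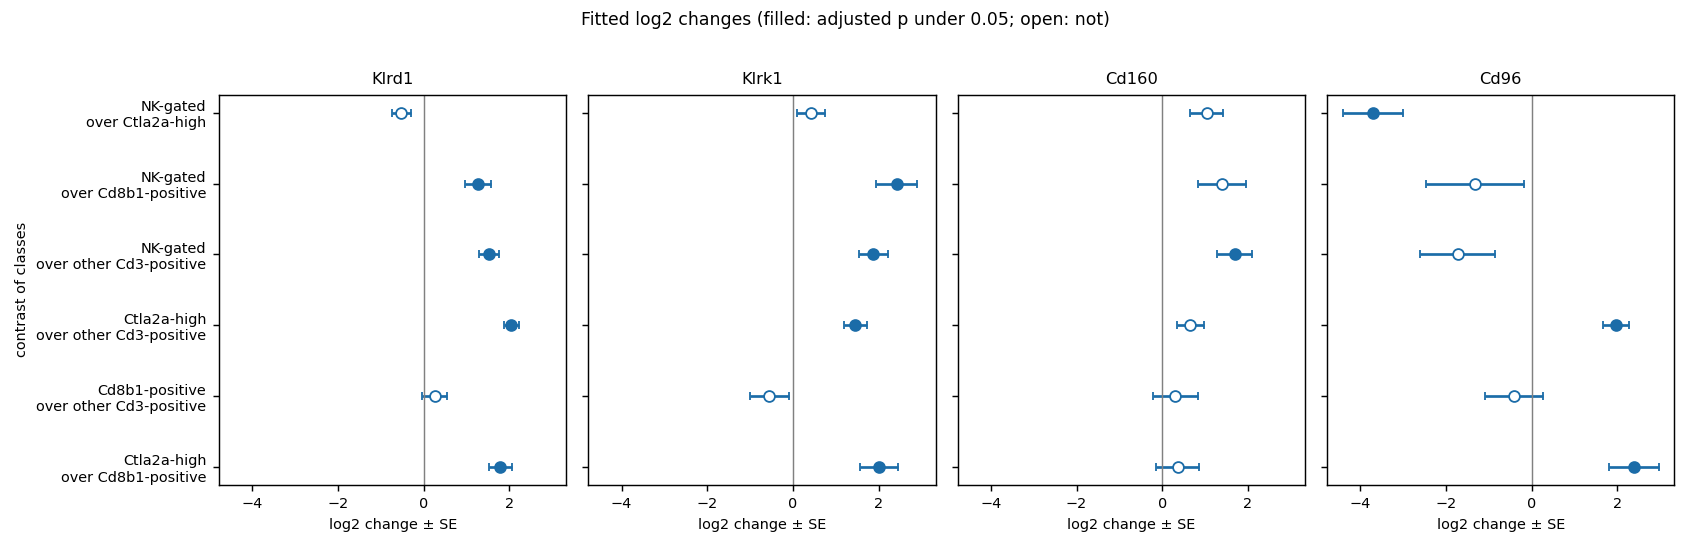
Fitted log2 change with its standard error (horizontal axis) of the 4 receptors that passed the filter on low counts, for the 6 contrasts of classes (vertical axis), from edgeR on sums per library and class. Filled points have an adjusted p under 0.05. Klrd1 and Klrk1 are filled for both classes against Cd8b1-positive and other Cd3-positive cells, and Cd96 is filled wherever Ctla2a-high cells are one side.

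Cd160, a glycolipid-anchored receptor that binds the herpesvirus entry mediator Tnfrsf14, was highest in NK-gated cells, with 248 CPM in P45, 336 in P50 and 308 in P50_Depil5D. Other Cd3-positive cells held 67.4 to 101 CPM in their 5 libraries, with no overlap. The log2 change between these classes was 1.69 ± 0.41 (edgeR, adjusted p = 0.021), and it was called in 17 of 23 alternatives. It was not called without P50 (adjusted p = 0.112), without P50_Depil5D (0.119), with at least 2 (0.160) or 4 (0.134) NK gate genes, with at least 500 genes per cell (0.0547) or with no filter on low counts (1.16, adjusted p = 0.186; 1.70 relative to the shift of all genes in that fit). Ctla2a-high cells spanned 49.6 CPM in P80 to 282 in P45, across both other ranges. Their difference from NK-gated cells was not called (1.04 ± 0.39 higher in NK-gated cells, adjusted p = 0.072), but without P45 it was (1.62 ± 0.43, adjusted p = 0.0089), as it was in 6 of 23 alternatives in all. The overlap with Pdzk1 named above applies to each of these values.

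Ncr1 encodes NKp46, an activating receptor used to mark NK cells and related innate lymphocytes. NK-gated cells held 6 UMIs (78.5 CPM) in P45, 8 (179 CPM) in P50 and 7 (308 CPM) in P50_Depil5D. In Ctla2a-high cells only 4 UMIs were found among 1001 cells, 3 of them in P45, and other Cd3-positive cells held 6 among 613. NK-gated cells lay above every sum of the other classes. Pooled over libraries, the ratio of NK-gated to Ctla2a-high cells was 54.6 (95% exact interval 18.7 to 217) and to other Cd3-positive cells 34.0 (13.5 to 102). In the fit with no filter on low counts, Ncr1 was higher in NK-gated than in Ctla2a-high cells (5.25 ± 0.75, edgeR adjusted p = 1.2e-09; 2.66% of 14875 genes called), than in Cd8b1-positive cells (5.13 ± 1.20, adjusted p = 0.0058; 0.571% called) and than in other Cd3-positive cells (4.86 ± 0.74, adjusted p = 4.2e-08; 2.14% called). That fit moved the median log2 change of the 1312 filtered genes by -0.53, 0.02 and -0.54 in these 3 contrasts, and by -0.01, -0.55 and 0.54 in Ctla2a-high over other, Cd8b1-positive over other and Ctla2a-high over Cd8b1-positive cells. All 23 receptor changes called in that fit kept their sign relative to these shifts.

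Klre1, whose product pairs with KLRI1 or KLRI2 chains, and Klrb1c, the activating receptor that marks NK cells of this strain, were also found mainly in NK-gated cells. Klre1 stood at 118 CPM in P45, 291 in P50 and 87.9 in P50_Depil5D, above all other sums, of which the highest was 49.6 CPM in Ctla2a-high cells of P80. Klrb1c stood at 91.5, 134 and 87.9 CPM in the same 3 libraries and reached at most 49.6 CPM elsewhere, again in that P80 sum, where it was 1 UMI. In the fit with no filter, Klre1 was higher in NK-gated than in Ctla2a-high cells by 2.29 ± 0.56 (edgeR, adjusted p = 0.0032) and than in other Cd3-positive cells by 3.33 ± 0.60 (adjusted p = 1.1e-05). Klrb1c was higher by 2.27 ± 0.64 (adjusted p = 0.021) and 3.30 ± 0.71 (adjusted p = 0.0005). Over Cd8b1-positive cells neither gene was called in that fit by edgeR. The changes there were 2.15 for Klre1 (adjusted p = 0.755) and 6.53 for Klrb1c (adjusted p = 0.0953). No UMI of Klrb1c was found in 62 Cd8b1-positive cells, so its pooled level was at least 5.81-fold higher in NK-gated cells, against a floor of 3 UMIs over the class. Klrb1c reads may include Gm44511.

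Cd96, a receptor for the nectin-family molecules Pvr and nectin-1, showed the opposite order. Ctla2a-high cells held 184, 254, 272, 198 and 255 CPM in library order. NK-gated cells held 1 UMI in P45, 0 in P50 and 1 in P50_Depil5D, a mean of 19.0 ± 22.6 CPM (SD, n = 3). Other Cd3-positive cells held 39.4 to 102 CPM, and Cd8b1-positive cells 0, 67.8 and 82.0 CPM in P45, P63 and P50_Depil5D. All 5 Ctla2a-high sums lay above all others. By edgeR, Cd96 was lower in NK-gated than in Ctla2a-high cells by a log2 change of -3.70 ± 0.71 (adjusted p = 0.00199), which lost its call without P50 (-2.99, adjusted p = 0.0548). It was higher in Ctla2a-high than in other Cd3-positive cells by 1.97 ± 0.30 (adjusted p = 4.3e-05) and than in Cd8b1-positive cells by 2.38 ± 0.58 (adjusted p = 0.0048), the latter not called with a Ctla2a gate of 0.1% (1.89, adjusted p = 0.0647). Counted cells gave the same order: 28.5% of Ctla2a-high cells had a UMI, 9.62% of other Cd3-positive and 2.60% of NK-gated cells.

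Klra1 and Klra7 encode Ly49A and Ly49G, inhibitory receptors for classical class I molecules. Both were rare in every class. Klra1 had 1 UMI in 77 NK-gated cells, 66 in Ctla2a-high, 0 in Cd8b1-positive and 104 in other Cd3-positive cells. By library, other Cd3-positive cells held 77.6, 100.3, 13.4, 203 and 43.6 CPM of Klra1 in library order, and the P80 value came from 12 UMIs in 2 of 39 cells. The pooled ratio of NK-gated to other Cd3-positive cells was 0.0853 (0.00214 to 0.486). In the fit with no filter, Klra1 was lower in NK-gated than in other Cd3-positive cells (log2 change -4.20, edgeR adjusted p = 0.00295) and than in Ctla2a-high cells (-3.62 ± 1.05, adjusted p = 0.0259). Klra1 had 0 UMIs in Cd8b1-positive cells. Against a floor of 3 UMIs, its pooled level there was 3.41-fold lower than in other Cd3-positive cells and 2.02-fold lower than in Ctla2a-high cells. The exact interval of the ratio of Cd8b1-positive to other Cd3-positive cells ran from 0 to 0.367. That of Ctla2a-high to Cd8b1-positive cells began at 1.60. Both contrasts were called in the fit with no filter (1.12% and 3.27% of 14875 genes). Klra7 had 8, 61, 2 and 80 UMIs in the 4 classes in the same order. Scaled to the total of each class, its pooled levels were 50.8, 40.8, 14.6 and 57.3 CPM. Klra7 was called in none of the 6 contrasts of that fit by edgeR, with an unadjusted p under 0.05 in 3 of them.

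Klrg1, an inhibitory receptor for cadherins, was found in other Cd3-positive and Cd8b1-positive cells and hardly in Ctla2a-high cells. Other Cd3-positive cells held 41.1, 53.7, 6.72, 135 and 55.5 CPM in library order. Ctla2a-high cells held 17.2 CPM in P45, 5.29 in P50, 0 in P63 and P80, and 4.30 in P50_Depil5D. In each library the level was lower in Ctla2a-high cells, although the ranges overlapped through P63. In the fit with no filter, Klrg1 was lower in Ctla2a-high than in other Cd3-positive cells by -2.95 ± 0.53 (edgeR, adjusted p = 1.8e-06; 7.27% of genes called) and than in Cd8b1-positive cells by -2.91 ± 0.90 (adjusted p = 0.04).

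Shares of cells with a UMI were compared after thinning each cell to 1000 UMIs, because depth differed between cells; cells under 1000 UMIs were left out, 8 of 77 NK-gated, 202 of 1001 Ctla2a-high, 4 of 62 Cd8b1-positive and 74 of 613 other Cd3-positive cells. Klrk1 was then found in 59.4% of NK-gated cells (79.2% before thinning), 54.2% of Ctla2a-high (64.2%), 13.8% of Cd8b1-positive (22.6%) and 21.9% of other Cd3-positive cells (31.8%). Klrd1 was found in 46.4%, 58.8%, 22.4% and 13.9% of the same classes (55.8%, 69.5%, 24.2% and 22.8% before thinning). Keratinocytes, which should lack these receptors, gave the level of free RNA: 0.873% of 458 keratinocyte-gated cells had a Klrk1 UMI and 0.437% a Klrd1 UMI, at a median depth of 2125 UMIs before thinning. Every class was far above it for these genes. Ncr1 was found in 14.5% of NK-gated cells (23.4% before thinning) and in 0 of 458 keratinocyte-gated cells, which allows a share of up to 0.655%. Its shares in Ctla2a-high cells (0.125%) and other Cd3-positive cells (0.186%) were under that limit and cannot be told from background.

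**Figure D3:**
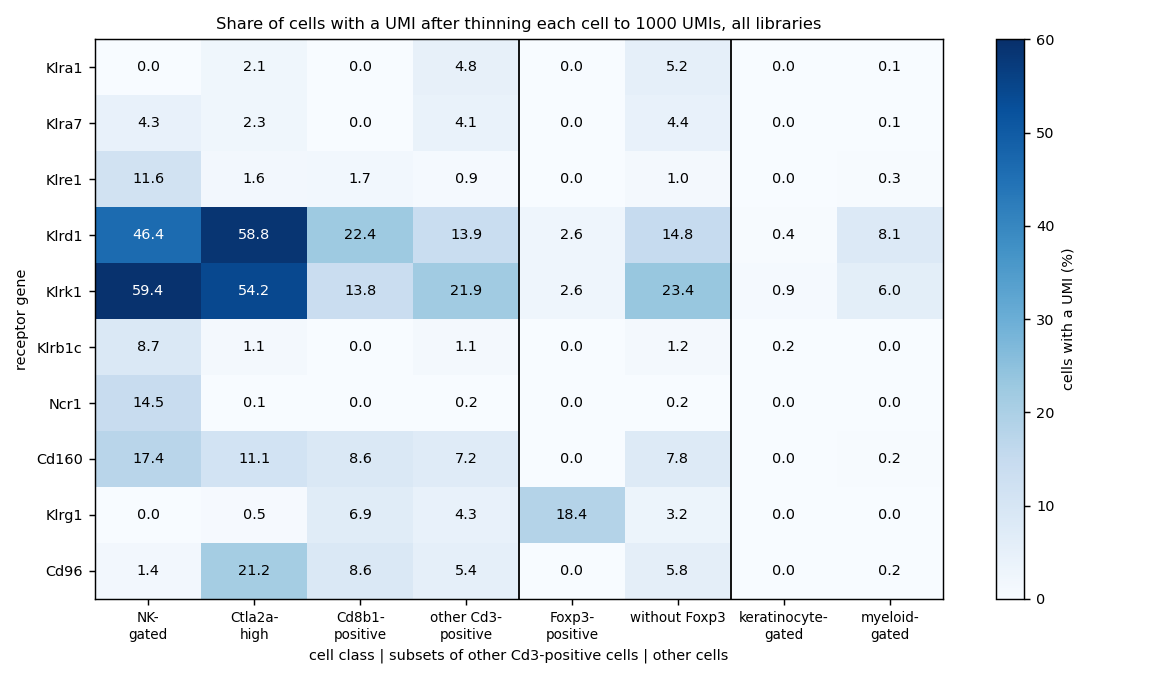
Percentage of cells with at least 1 UMI of each receptor (rows) after thinning every cell to 1000 UMIs, in the 4 lymphocyte classes, in 2 subsets of other Cd3-positive cells, and in keratinocyte-gated and myeloid-gated cells (columns), all libraries pooled. Klrk1 and Klrd1 exceed 45% in the first 2 columns only, Klrg1 is highest in the Foxp3-positive subset, and the keratinocyte-gated column is at or under 0.9% throughout.

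Single cells often carried several of the receptors. After thinning, 53.6% of 69 NK-gated cells and 49.2% of 799 Ctla2a-high cells had UMIs of at least 2 of the 10 genes, against 13.8% of 58 Cd8b1-positive and 14.1% of 539 other Cd3-positive cells. None was found in 17.4% of NK-gated, 14.5% of Ctla2a-high, 51.7% of Cd8b1-positive and 59.6% of other Cd3-positive cells, and in 98.5% of keratinocyte-gated cells. The largest number of receptors in 1 cell was 6, in an other Cd3-positive cell of P50. Within Ctla2a-high cells, Klrd1 was found in 60.3% of 433 cells with Klrk1 and in 57.1% of 366 without it. Within other Cd3-positive cells the shares were further apart, 30.5% of 118 Klrk1-positive cells against 9.26% of 421 others. In that class the 41 cells with Klra1 or Klra7 also had Cd160 in 36.6%, Klrd1 in 51.2% and Klrk1 in 53.7%. The 498 cells without had them in 4.82%, 10.8% and 19.3%. All shares in this paragraph pool the libraries. Doublets of a T cell and an NK cell were not removed by a caller, and their part in these cells was not tested.

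Other Cd3-positive cells were divided further into Foxp3-positive cells, Foxp3 being the factor of regulatory T cells (42 cells), and the 571 cells without a Foxp3 UMI. Klrg1 was found in 23.8% of Foxp3-positive cells (95% exact interval 12.1 to 39.5) and in 5.78% of the cells without Foxp3 (4.01 to 8.02). After thinning the shares were 18.4% and 3.19%. The Foxp3-positive cells with Klrg1 held 9 UMIs in P45, 2 in P50 and 5 in P80. None was found in the 3 cells of P63 and the 9 of P50_Depil5D. P80 had only 3 Foxp3-positive cells, and 2 of them had a barcode shared with another library. Klrk1 was found in 33.3% of the cells without Foxp3 and in 11.9% of Foxp3-positive cells, and the Foxp3-positive ones were all in P45. After thinning the Klrk1 shares were 23.4% and 2.63%. Cd160, Ncr1 and Klra1 had no UMI in the 42 Foxp3-positive cells, which allows a share of up to 7.14% for each. The Foxp3-positive subset has too few cells per library for a test.

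Between libraries, the largest differences in Ctla2a-high cells lay in P45. Cd160 was found in 42.5% of the 73 cells of P45 (31.0 to 54.6), in 12.9% of 404 in P50, 12.5% of 24 in P63, 4.76% of 21 in P80 and 10.6% of 479 in P50_Depil5D. After thinning the P45 share was 26.0%, and those of P50 and P50_Depil5D 10.3% and 9.43%. Klra7 was found in 17.8% of P45 cells and in at most 4.76% elsewhere, and Klra1 in 12.3% of P45 cells and in at most 4.76% elsewhere. The 33 UMIs of Klra1 in P45 came from 9 cells, and the 33 of Klra7 from 13. The ratio of CPM in P50 to P45 was 0.425 for Cd160 (95% exact interval 0.29 to 0.627), 0.139 for Klra1 (0.0703 to 0.264) and 0.0836 for Klra7 (0.0352 to 0.179). Of 7 receptors with at least 20 UMIs over both libraries, 4 were lower in P50 by more than 1.5-fold and none higher, where 36.5% of 4072 genes were past 1.5-fold in either direction. The 4 were Klra1, Klra7, Klre1 and Cd160. Klre1 rested on 12 UMIs in P50 and 8 in P45, at a ratio of 0.46 (0.173 to 1.30), an interval that includes 1. Klrk1 (ratio 1.05, 0.872 to 1.28) was not among the 4. Klrd1 was higher in P50 by a ratio of 1.505 (1.26 to 1.81), just within the limit on the scale used, with 10 CPM added.

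Other values of the P45 Ctla2a-high cells moved with these. Their Tyrobp level was 1069 CPM, against 79.3 to 408 CPM in the other 4 libraries, and the sum of the 10 myeloid genes was 1828 CPM against 242 to 1637. The Cd3 genes summed to 8231 CPM against 11755 to 16606. Whether these account for the higher Cd160, Klra1 and Klra7 of P45 was not tested. P80 over P45 showed 3 of 6 receptors lower and none higher, beside 47.9% of 1323 genes past 1.5-fold, but 18 of the 21 P80 cells had under 1000 UMIs. The 3 held 2 (Klra1), 1 (Klra7) and 1 (Cd160) UMIs in P80. Their ratios were 0.523 (0.0608 to 2.04), 0.261 (0.00643 to 1.56) and 0.176 (0.00437 to 1.03), and each interval includes 1. One of the 3, Klra1, turned from a log2 ratio of -0.87 to 0.71 with a Ctla2a gate of 0.1%.

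**Figure D4:**
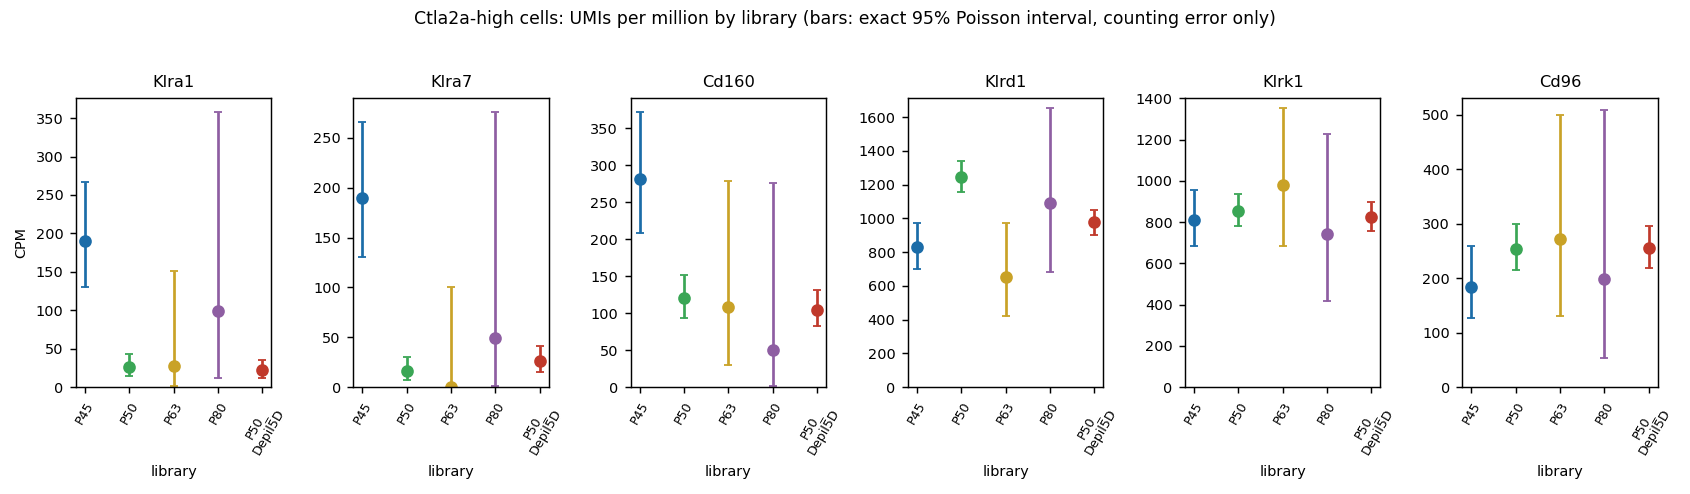
Level in CPM (vertical axis) of 6 receptors in the Ctla2a-high cells of each library (horizontal axis), with exact 95% Poisson intervals for counting error. For Klra1, Klra7 and Cd160 the interval of P45 lies above those of P50 and P50_Depil5D, while Klrk1 and Cd96 keep overlapping intervals in all 5 libraries.

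P50_Depil5D was set beside P50 first in Ctla2a-high cells, the class with most cells in both. None of 6 receptors was past 1.5-fold there, beside 11.6% of 5351 genes. Klrk1 stood at 855 CPM in P50 and 825 in P50_Depil5D (ratio 0.965, 0.854 to 1.09), Cd96 at a ratio of 1.01 (0.803 to 1.26) and Cd160 at 0.874 (0.619 to 1.23). Klrd1 was lower in P50_Depil5D, at a ratio of 0.783 (0.704 to 0.871). In NK-gated cells Klrk1 was higher in P50_Depil5D (40 UMIs in 16 cells) than in P50 (28 UMIs in 20 cells), at a ratio of 2.80 (1.69 to 4.72). It was found in 93.75% against 70% of those cells, and after thinning in 85.7% of 14 against 43.75% of 16. Klrd1 in the same cells gave 0.823 (0.395 to 1.62). Both ratios rest on few cells of 1 library each. The share of all genes past 1.5-fold was not counted in NK-gated cells, so neither ratio has a background beside it.

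In other Cd3-positive cells, 4 of 7 receptors were lower in P50_Depil5D than in P50 by more than 1.5-fold and none higher, where 17.6% of 2831 genes were past it. They were Klra1 (ratio 0.435, 0.195 to 0.902), Klra7 (0.195, 0.0367 to 0.676), Klrd1 (0.612, 0.398 to 0.927) and Klrk1 (0.618, 0.416 to 0.91). With a looser gate of 0.1% for Ctla2a, which moves cells out of this class, the log2 ratios of Klra1, Klrd1 and Klrk1 turned to 0.54, 0.46 and 0.20. P80 over P45 in the same class gave 3 receptors higher and 1 lower of 7, beside 48.6% of 3873 genes: Klra1 at a ratio of 2.62 (1.27 to 4.98), Klrg1 at 3.30 (1.29 to 7.46) and Cd96 at 2.47 (0.835 to 6.11) were higher. The 12 UMIs of Klra1 in P80 came from 2 of 39 cells, and its share of positive cells was 5.13% there against 8.76% in P45. Klrg1 had 8 UMIs in P80, most of them in the 3 Foxp3-positive cells of that library, and Cd96 had 6, with an interval that includes 1. Over 14 alternatives the log2 ratio of Klrg1 ran from 0.39 to 1.79. Klra7 had 0 UMIs in P80 and was 1.56-fold lower against a floor of 3 UMIs, with an exact interval of the ratio from 0 to 0.818. With no myeloid limit for Cd3-positive cells, however, the log2 ratio of Klra7 was 0.094.

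Further genes of the receptor system were read from 5 lists, each count being of genes called by edgeR. Of 18 other killer lectin-like receptors, 2 passed the filter on low counts, Klrb1b and Klrc1, and both were higher in Ctla2a-high than in other Cd3-positive cells, where 36.1% of all 1312 genes were called. Klrc1, which encodes the NKG2A partner of Klrd1, changed there by 2.16 (adjusted p = 0.000595) and by 3.31 in NK-gated over other Cd3-positive cells (adjusted p = 0.000825). Klrb1b, an inhibitory receptor, changed by 2.71 in Ctla2a-high over other Cd3-positive cells (adjusted p = 5.35e-06) and by 4.26 over Cd8b1-positive cells (adjusted p = 0.000425). In NK-gated cells it was lower than in Ctla2a-high cells, by -1.58 (adjusted p = 0.0288). Neither was called in the remaining contrasts. The median of the pair in Ctla2a-high over other Cd3-positive cells was 2.44.

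Adaptors carry the signal of these receptors into the cell. Of 18 adaptor and signalling genes 9 were tested, and 4 were higher and 0 lower in Ctla2a-high than in other Cd3-positive cells, near the 36.1% of all genes called, with a list median of 0.66. In NK-gated cells 2 were higher and 1 lower than in other Cd3-positive cells (5.49% of all genes called), and 1 was higher and 4 lower than in Ctla2a-high cells (19.4%). Fcer1g, a signalling chain shared by several receptors, was at 2373 ± 203 CPM in NK-gated cells (SD, n = 3), 3004 ± 584 in Ctla2a-high (n = 5), 131 ± 148 in Cd8b1-positive (n = 3) and 672 ± 156 in other Cd3-positive cells (n = 5). It was higher than in other Cd3-positive cells by 1.75 in NK-gated cells (adjusted p = 0.00233) and by 2.03 in Ctla2a-high cells (adjusted p = 8.81e-06). Tyrobp was at 2494 ± 364 CPM in NK-gated and 360 ± 418 in Ctla2a-high cells, a log2 change of 3.57 (adjusted p = 0.000245). Cd247, the zeta chain, went the other way, with 32.1 ± 28.1 CPM in NK-gated and 823 ± 232 in Ctla2a-high cells (log2 change -4.27, adjusted p = 2.22e-05). Ptpn6, a phosphatase recruited by inhibitory receptors, was also lower in NK-gated than in Ctla2a-high cells (-2.08, adjusted p = 0.00199).

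Of 15 other NK and costimulatory receptors found by symbol 4 were tested, of which 2 were higher and 2 lower in Ctla2a-high than in other Cd3-positive cells (36.1% of all genes called), with a list median of 0.55. Cd244, a receptor of the SLAM family, was higher by 2.06 there (adjusted p = 1.11e-05) and by 2.09 in NK-gated over other Cd3-positive cells (adjusted p = 0.0027). Lag3, an inhibitory receptor, was higher in Ctla2a-high cells by 3.06 (adjusted p = 4.48e-05). Cd27, a costimulatory receptor, and Il18r1, a chain of the interleukin-18 receptor, were lower, by -1.06 and -0.96 (adjusted p = 0.013 and 0.0151).

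Of 10 transcription factors of NK and cytotoxic cells 6 were tested, of which 2 were higher and 1 lower in Ctla2a-high than in other Cd3-positive cells (36.1% of all genes called), with a list median of 0.05. Runx3 was higher by 1.44 there (adjusted p = 6.75e-06) and by 0.98 in NK-gated over other Cd3-positive cells (adjusted p = 0.0418). Over Cd8b1-positive cells it was not called, at 0.18 in NK-gated (adjusted p = 0.911) and 0.64 in Ctla2a-high cells (adjusted p = 0.0857). Nfil3, a factor needed for NK cell development, was higher in Ctla2a-high cells by 1.07 (adjusted p = 0.00432) and lower in NK-gated than in Ctla2a-high cells (-3.11, adjusted p = 0.00302). Gata3 was lower in Ctla2a-high than in other Cd3-positive cells (-1.83, adjusted p = 0.000237).

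Ligands were read in all classes and in the 2 classes of other cells. Of 17 ligand genes in the table, 4 were tested over the 6 contrasts, and 1 was called in 1 of them, B2m, the light chain of class I molecules, which was lower in Ctla2a-high than in other Cd3-positive cells (-0.46, edgeR adjusted p = 0.0153; 36.1% of all genes called). H60c, a ligand of NKG2D in skin, had 22 UMIs in keratinocyte-gated cells (11.3 CPM) and 3 in all other classes together, and was found in the keratinocyte-gated cells of all 5 libraries, at 10.1, 12.0, 2.07, 12.1 and 28.9 CPM in library order. Cdh1, the cadherin bound by Klrg1, stood at 196 CPM in keratinocyte-gated and 12.5 CPM in myeloid-gated cells. Pvr, the ligand of Cd96, stood at 39.7 CPM in myeloid-gated and 6.65 CPM in keratinocyte-gated cells. Cfp, whose product properdin binds NKp46, stood at 191 CPM in myeloid-gated cells and at most 8.69 CPM in the others. These cells came through a sort for CD45 and are not a sample of the epidermis, and 321 of the 530 keratinocyte-gated barcodes were shared between libraries.

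**Figure D5:**
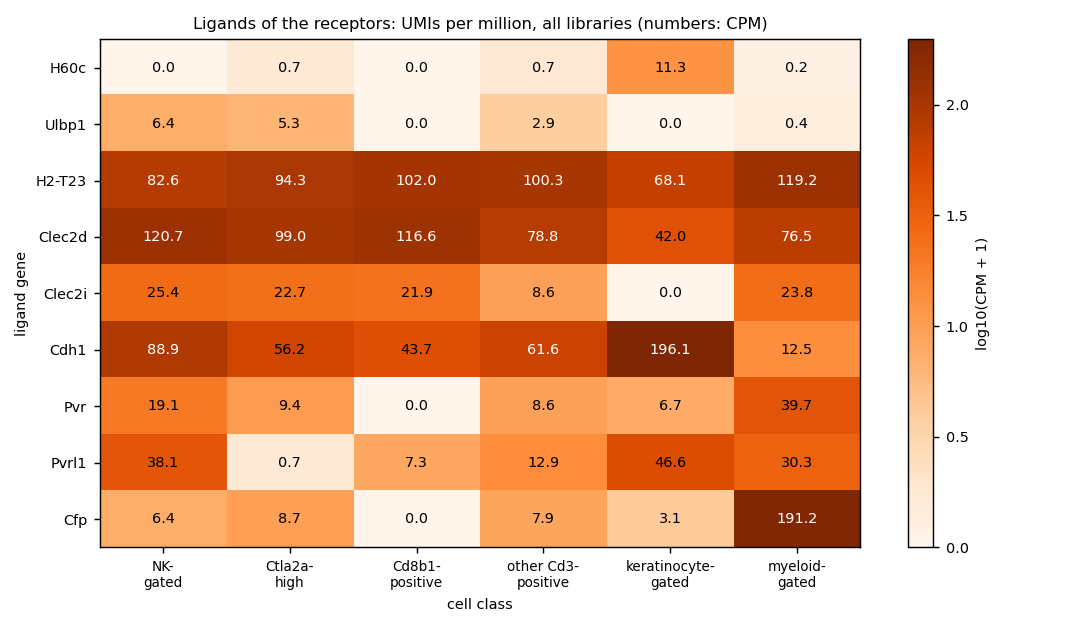
Level in CPM (numbers; colour on a log10 scale) of 9 ligand genes (rows) in the 4 lymphocyte classes and in keratinocyte-gated and myeloid-gated cells (columns), all libraries pooled. Within its row, H60c and Cdh1 are highest in keratinocyte-gated cells, and Pvr and Cfp in myeloid-gated cells.

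The genes most like each receptor were sought over the 16 sums per class and library, by Pearson's r of log2(CPM + 10); the sums share libraries, and r is given as a description. Klrk1 was most like Tsc22d1 (r = 0.93), Fcer1g (0.92) and Cd244 (0.91). Klrd1 was most like Ctla2a (0.90), itself a gate gene, Ctla2b (0.90) and Dad1 (0.87), and Cd96 was most like Rhoh (0.93), Calm2 (0.92) and Cd7 (0.88). For Ncr1 the first was Pglyrp1 (0.86), for Cd160 Ugcg (0.87), for Klre1 Tyrobp (0.79), for Klrg1 Rpl37 (0.79), for Klra7 Nhp2l1 (0.76), for Klrb1c Dnajc19 (0.75) and for Klra1 Tmem59 (0.72).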

How the data were processed

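The authors deposited raw UMI counts per gene and cell for 5 libraries. The genome build mm10 and Seurat are named in the submitters' processing notes; for the aligner, annotation and cell calling the entry is: not given in the sources used here. Columns of other samples numbered 0. Of 6223 barcodes, 61 with under 200 genes or over 10% mitochondrial UMIs were removed. Lymphocytes held at most 1% of their UMIs in a myeloid list and at most 1% in keratinocyte and stroma lists, and at most 1 UMI of B cell, mast cell and neutrophil genes; 784 such cells fell in no class. No doublet caller was run.

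Sums of at least 10 cells per class and library (16 sums) were fitted with edgeR 4.0.16 (R 4.3.3; TMM, filterByExpr, quasi-likelihood, library as block), and with DESeq2 1.42.0 as an alternative. Intervals are exact at 95%, and they and limits from a count of 0 (3 counts) cover counting error only. Levels between libraries were compared with 10 CPM added, past 1.5-fold, for genes with 20 UMIs over both. Tables were made with Python 3.11.15, numpy 2.4.6, scipy 1.17.1 and pandas 2.3.3. On simulated counts for NK-gated over Ctla2a-high cells, 177 of 200 genes changed 4-fold among 1312 were recovered, with 4 calls among unchanged genes. The labels do not say that libraries came from separate animals, so p-values measure the spread between these libraries, which may be technical.

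All 10 receptors were named, and from each list of other receptors, adaptors, ligands and transcription factors at most 4 genes called in most contrasts, and for each receptor the 3 genes most like it. The receptors and lists were chosen with earlier results of these data known. A further subset of other Cd3-positive cells is not reported here.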

Additional observations from a re-analysis of the deposited data

Results flagged for a closer look

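Klrd1 and Klrk1 were also found in cells outside the lymphocyte classes. After thinning, 8.15% of 2086 myeloid-gated cells had a UMI of Klrd1 and 5.99% a UMI of Klrk1, above the 0.437% and 0.873% of keratinocyte-gated cells. Before thinning the myeloid-gated shares were 15.0% and 13.8%. Klrd1 was found in 11.6% (95% exact interval 9.79 to 13.5) of 1186 cells with a UMI of Cd209a, a gene of dermal dendritic cells, and in 3.67% (2.54 to 5.11) of 900 without. It was found in 2.11% of 380 cells with a UMI of the macrophage gene C1qa, against 9.50% of 1706 without. Klrk1 differed less, with 6.49% and 5.33% for Cd209a. The log2 difference between Ctla2a-high and other Cd3-positive cells was examined over the 5 libraries for each of the 10 receptors. Of these, 0 had a library far from the rest. Libraries need not be alike for that, since widely spread values leave no single one apart. The difference ran from -2.67 in P63 to 2.58 in P80 for Klra7, and from -1.60 in P50 to 1.19 in P45 for Klra1.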

How the results depend on the processing

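Of 144 alternative counts of receptors called between classes, 122 stayed within 1.5 times the main count; of 570 alternative log2 changes, 520 kept direction and side of the threshold, 22 lost a call, 13 gained one and 15 turned. NK-gated over Ctla2a-high cells, with 1 receptor called, gave 3 with a Ctla2a gate of 1% or at least 4 Cd3 UMIs, 2 with at least 2 NK gate genes, a lineage limit of 0.5%, no myeloid limit for Cd3-positive cells (chosen after seeing the data) or without the 5% deepest cells, and 6 with no filter on low counts. NK-gated over Cd8b1-positive cells, with 2, gave 1 with a Ctla2a gate of 0.1% or 1%, at least 2 or 4 NK gate genes or a lineage limit of 2%, and 0 with at least 4 Cd3 UMIs. With no filter, NK-gated over other gave 5, Cd8b1-positive over other 1 and Ctla2a-high over Cd8b1-positive 5. Leaving out 1 library gave 0 to 2 for NK-gated over Ctla2a-high, 1 to 2 over Cd8b1-positive, 2 to 3 over other, 3 for Ctla2a-high over other, 0 for Cd8b1-positive over other and 3 to 4 for Ctla2a-high over Cd8b1-positive cells.

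Log2 changes between classes that turned were all uncalled in the main analysis. The 3 that turned with no filter did so through its shift of all genes, and relative to it were 0.22 (Klrd1) and 0.31 (Cd160) in Cd8b1-positive over other and 0.40 (Klrk1) in NK-gated over Ctla2a-high cells, beside 0.26, 0.30 and 0.41 with the filter. Klrd1 in Cd8b1-positive over other cells went to -0.63 (Ctla2a gate 1%), -0.33 (no filter) and -0.023 (without P45). Klrk1 in NK-gated over Ctla2a-high cells went to -0.11 and -0.10 (at least 2 or 4 NK gate genes), -0.13 (no filter) and -0.0013 (without P50_Depil5D; up to 0.80 without P50). Cd160 went to -0.69 in Ctla2a-high over other (gate 1%), to -0.25 (no filter) and -0.21 (without P50_Depil5D; up to 0.56 without P63) in Cd8b1-positive over other, and to -0.81 (gate 1%), -0.21 (at least 4 Cd3 UMIs) and -0.18 (without P45; up to 0.94 without P50_Depil5D) in Ctla2a-high over Cd8b1-positive cells. Cd96 in Cd8b1-positive over other cells went to 0.17 (gate 0.1%) and 0.29 (without P45; down to -1.17 without P50_Depil5D). Between libraries, in other Cd3-positive cells, P50_Depil5D over P50 turned to 0.54 for Klra1, 0.46 for Klrd1 and 0.20 for Klrk1 (gate 0.1%) and 0.058 for Klrk1 (gate 1%), and P80 over P45 to 0.094 for Klra7 (no myeloid limit). In Ctla2a-high cells P80 over P45 turned to 0.71 for Klra1 (gate 0.1%). For all but the no-filter values the cause was not tested. Of 840 alternative shares 62 moved, 33 of them with the depth of thinning. No paired analysis was possible because each label has 1 library; the class contrasts already hold library as a block. Counts of 0 to 13 UMIs per sum limit Ncr1, Klre1, Klrb1c and Klrg1 in the smaller classes.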

Other observations

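Within Ctla2a-high cells pooled over libraries, the 25 thinned cells with a UMI of Klra1 or Klra7 had Cd160 in 56%. The 774 without had it in 9.69%, while Klrd1 (64% and 58.7%) and Klrk1 (64% and 53.9%) differed less. P45 held 73 of the 799 thinned cells, but 6 of the 17 with Klra1 and 8 of the 18 with Klra7. As counted, P45 also had the highest Cd160 share of this class. Whether the difference in Cd160 holds within a library was not tested. Klra7 was found in 58.8% of the 17 Klra1-positive cells of that class and in 1.02% of the 782 others; the near copies in this gene family limit what the pair shows. By library, the mean number of the 10 receptors found in a thinned Ctla2a-high cell was 2 for P80 (3 thinned cells), 1.81 for P45, 1.58 for P50, 1.45 for P63 and 1.44 for P50_Depil5D.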
